A study of Homo sapiens with 8 samples.

Results

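The genes described are 10 known outputs of NF-kB: the CXC chemokines IL8, CXCL1, CXCL2 and CXCL3, the CC chemokine CCL20, the cytokines IL1A, IL1B and IL6, and the feedback inhibitors NFKBIA and TNFAIP3. The rule that picks them uses their names and no measured value, though the set was proposed with earlier results of these data known. They were looked up among the 23368 gene symbols of a table of ribosome-bound transcripts, and all 10 were found there. The cells were H2030-BrM, a brain-metastatic derivative of the human lung adenocarcinoma line H2030. They carried EGFP-Rpl10a, a tagged ribosomal protein, so that translating ribosomes and the mRNA on them could be pulled down with antibodies to EGFP (translating ribosome affinity purification, TRAP).

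The 8 libraries form 4 groups of 2 labelled biological replicates. Control cells carried an shRNA against luciferase, and the other cells carried an shRNA against L1CAM, a cell adhesion molecule; all cells of both kinds carried EGFP-Rpl10a. Each kind was grown in a plastic dish in RPMI medium with serum, or seeded on organotypic slices of mouse brain for 48 hours in a slice medium of DMEM and HBSS with a lower share of serum. The groups are called control dish, control slice, knockdown dish and knockdown slice. The slice, its medium and the time of co-culture cannot be told apart, and the labels give neither the number of L1CAM hairpins nor whether the replicates were separate cultures, so p-values measure the spread between these libraries, which may be technical.

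NF-kB dimers such as RELA with NFKB1 are held in the cytoplasm by inhibitors of the IkB family, of which NFKBIA (IkB alpha) is the best known. Stimuli such as TNF or IL1 activate a kinase complex that marks the inhibitor for destruction, and the freed dimers bind kappa B sites in the promoters of inflammatory genes. NFKBIA and TNFAIP3 (A20, a ubiquitin-editing enzyme) are themselves targets and close the loop by shutting the pathway down. IL8 and CXCL1 to CXCL3 are ligands of the receptors CXCR1 and CXCR2 and attract neutrophils, CCL20 is the ligand of CCR6, and IL6 signals through IL6R and the shared subunit IL6ST.

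The promoters are shown first, because freed NF-kB dimers bind kappa B sites in promoters. RefSeq promoters (GRCh38.p14, 250 bases before to 50 after the start) were matched for 10 of 10 genes, with IL8 listed there as CXCL8. The kappa B consensus, searched by its name on both strands, was found in 7 of the 10 genes, against 11.3% of all 35116 promoters. The longest stretch common to the 250 bases upstream of all 4 CXC genes was the 9 letters GGAATTTCC; it lies inside the consensus matches of CXCL1, CXCL2 and CXCL3, was also present in NFKBIA on the other strand, and was found in 0.461% of all promoters. Neither share is a test of enrichment: the genes were picked as known outputs of NF-kB, and the stretch was taken from 4 of these promoters. The lines below give the match in capitals with 20 flanking bases on each side, in the direction of the gene.
IL8, chr4:73740458-73740506, + strand: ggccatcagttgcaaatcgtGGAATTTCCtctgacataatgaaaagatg
CXCL1, chr4:73869294-73869344, + strand: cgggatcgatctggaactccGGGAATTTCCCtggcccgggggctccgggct
CXCL2, chr4:74099243-74099293, - strand: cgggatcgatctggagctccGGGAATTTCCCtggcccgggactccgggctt
CXCL3, chr4:74038738-74038788, - strand: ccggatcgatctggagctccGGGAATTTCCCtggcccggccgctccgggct
CCL20, chr2:227813743-227813792, + strand: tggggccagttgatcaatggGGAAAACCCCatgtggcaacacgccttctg
IL6, chr7:22727107-22727156, + strand: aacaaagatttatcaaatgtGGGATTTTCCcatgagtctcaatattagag
NFKBIA, chr14:35404801-35404850, - strand: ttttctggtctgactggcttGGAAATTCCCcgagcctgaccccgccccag
TNFAIP3, chr6:137867172-137867233, + strand: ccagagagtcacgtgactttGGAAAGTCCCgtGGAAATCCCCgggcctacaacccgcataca

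In IL8 the stretch began 91 bases before the start and did not match the consensus in these letters, whereas in CXCL1 to CXCL3 the match began 78 or 79 bases before it inside nearly the same flanks. The promoters of CXCL1 and CXCL3 were identical at 81.4% of aligned positions over 250 bases, those of CXCL2 and CXCL3 at 73.4% and those of CXCL1 and CXCL2 at 70.1%. TNFAIP3 held 2 matches, at 67 and 55 bases. IL1A and IL1B held neither the consensus nor the stretch in this window, and a match or its absence says only what letters are there.

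Depth was 13486212 to 16734651 recovered reads per library. The 2 knockdown slice libraries differed more than other replicates: the SD of their log2 difference over genes was 0.637, against 0.218 to 0.303 in the other groups. That difference does not say which of the 2 stood apart. Calls in every comparison share 1 estimate of spread per gene, so calls are described below with and without knockdown slice replicate 2. Leaving out either knockdown slice library raised the number of all genes called in each pairwise comparison, and leaving out any other library lowered it. A call gained or lost in such a fit need not be particular to that gene. L1CAM had normalized counts of 482 and 440 in control dish, 451 and 438 in control slice, 126 and 88.3 in knockdown dish and 74.7 and 65.4 in knockdown slice, lower in all 4 knockdown libraries. Its log2 fold change was −2.11 ± 0.21 (SE) in the dish (limma adjusted p = 0.00865) and −2.65 ± 0.21 on slices (limma adjusted p = 0.00164); in the dish the limma adjusted p rose to between 0.104 and 0.191 without any single dish library, and on slices it was 0.318 when the 4 libraries compared were fitted alone. Of the labelled epithelial type, KRT8 (3489 to 5865) and KRT18 (3460 to 6002) were high in all libraries, EPCAM was at 78.3 to 169 and CDH1 at 21.0 to 33.2, while KRT7 reached 14.1 and KRT19 reached 1.00.

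IL8 was by far the most abundant of the 10 transcripts (the plot of normalized counts by library shows all values). Per kilobase of exon, the mean normalized count of IL8 in control dish was 1508, against 541 for NFKBIA, 266 for IL6, 222 for CXCL1, 203 for CXCL2, 179 for CCL20, 52.0 for CXCL3 and 36.6 for TNFAIP3. On that scale 5.70% of 12462 genes stood above IL8 in control dish, 5.22% in control slice, 13.5% in knockdown dish and 7.63% in knockdown slice. The neighbours IL6 (237 and 296 per kilobase) and CXCL1 (213 and 231) did not overlap in control dish. Neither did CXCL1 and CXCL2 (201 and 205), CXCL2 and CCL20 (161 and 197), or CXCL3 (63.7 and 40.4) and TNFAIP3 (37.6 and 35.6), though several of these gaps were small. NFKBIA came after IL8 and before IL6 in all 4 group means.

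IL1A and IL1B, the interleukin 1 ligands that start this pathway in many tissues, were near or at 0. IL1A had 10 reads in all 8 libraries together, at most 3 in any one and none in 2 libraries. IL1B had 0 reads in all 8 libraries, where 3 reads, the limit a count of 0 allows, correspond to 2.75 to 3.57 normalized counts (counting error only). Neither passed the filter of a mean of 10, so 8 of the 10 genes were tested, and no fold change is given for these.

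The first comparison asked how the transcripts differed between brain slices and the dish in control cells. CXCL1 and CXCL2 and both feedback inhibitors were lower on slices, at ratios of group means of 2.56-fold, 2.32-fold, 2.25-fold (TNFAIP3) and 1.64-fold (NFKBIA), while the means of IL8 and CXCL3 differed by less than the spread between replicates. Of the 8 genes tested, 4 fell and 0 rose, against 14.8% of all 13010 tested genes called in either direction, 6.80% higher and 8.03% lower. The median log2 fold change of the 8 was −0.62, beside 0.01 over all genes. Log2 fold changes here are of normalized count + 1, which understates changes of low genes.

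CXCL1 had normalized counts of 234 and 254 in control dish and 95.5 and 95.2 in control slice. The slice libraries were the lower ones, with no overlap, and the log2 fold change was −1.34 ± 0.22 (limma adjusted p = 0.00794). CXCL2, its close paralog, had 245 and 250 in the dish and 114 and 99.5 on slices, again without overlap, at −1.21 ± 0.22 (limma adjusted p = 0.0107). CXCL3, another paralog, had 68.5 and 43.4 in the dish and 57.3 and 53.5 on slices, where the slice values lay between the dish values, at 0.02 ± 0.33 (limma adjusted p = 0.974). The 3 genes share some sequence, with 60 of the 1048 stretches of 50 bases in the longest CXCL1 transcript also found in CXCL2, so some reads could be assigned to either, and IL8 shared no such stretch with any of them.

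IL8 had 2986 and 3055 normalized counts in control dish and 3214 and 2962 in control slice. The groups overlapped, and the log2 fold change of 0.03 ± 0.14 missed the threshold (limma adjusted p = 0.906). The other 2 secreted factors were lower in each slice library than in each dish library but were not called. For CCL20 the counts were 136 and 166 against 119 and 96.3, at −0.48 ± 0.21 (limma adjusted p = 0.158). IL6, which acts on tumour and glial cells through JAK and STAT3, had 406 and 507 in the dish and 312 and 319 on slices, at −0.52 ± 0.18 (limma adjusted p = 0.0778).

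Both feedback inhibitors fell. TNFAIP3 had 178 and 169 in control dish and 71.6 and 82.4 in control slice, at −1.16 ± 0.20 (limma adjusted p = 0.0098). NFKBIA had 1040 and 1016 in the dish and 626 and 631 on slices, at −0.71 ± 0.16 (limma adjusted p = 0.0223). Neither gene's groups overlapped, and the replicates of each group lay close together. In all, 6 of the 8 genes were lower in both slice libraries than in both dish libraries, an arrangement that 37.3% of all tested genes showed. The 4 calls were lost when any 1 of the 4 control libraries was left out, in fits that lost most calls over all genes. With any 1 library left out, the log2 fold changes kept their sign. They ranged from −1.40 to −1.28 for CXCL1, −1.30 to −1.11 for CXCL2, −1.26 to −1.06 for TNFAIP3 and −0.73 to −0.69 for NFKBIA. With knockdown slice replicate 2 left out, 6 of the 8 fell, CCL20 (limma adjusted p = 0.0442) and IL6 (limma adjusted p = 0.00483) being added, but 47.0% of all tested genes were then called, 23.9% higher and 23.0% lower.

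The same comparison in L1CAM-knockdown cells gave 1 gene higher and 2 lower on slices, against 21.3% of all genes called in either direction, 10.1% higher and 11.2% lower. IL8 rose: its normalized counts of 1286 and 1520 in knockdown dish stood below 2510 and 2326 in knockdown slice, a ratio of means of 1.72, or 0.79 ± 0.14 on the log2 scale (limma adjusted p = 0.00816). CXCL1 moved the other way, from 112 and 169 to 79.3 and 78.5, at −0.79 ± 0.22 (limma adjusted p = 0.0361). NFKBIA fell as well, from 887 and 1154 to 650 and 666, at −0.62 ± 0.16 (limma adjusted p = 0.0269). Thus the most abundant chemokine transcript and its relative CXCL1 moved in opposite directions within the same 4 libraries.

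The remaining genes were not called in knockdown cells. CXCL2 had 86.1 and 122 in the dish and 67.3 and 70.2 on slices (−0.57 ± 0.22, limma adjusted p = 0.0902), and TNFAIP3 had 92.5 and 99.4 against 80.3 and 64.3 (−0.41 ± 0.20, limma adjusted p = 0.176). CCL20 had 66.9 and 73.3 against 65.5 and 60.7, and IL6 had 252 and 244 against 193 and 227. All 4 were lower in both slice libraries, though by small margins for CCL20; with CXCL1 and NFKBIA, 6 of the 8 genes showed this arrangement, as did 28.7% of all tested genes. CXCL3 had 26.6 and 25.1 in the dish and 46.1 and 26.2 on slices, and overlapped. The IL8 call was lost only without knockdown dish replicate 1 among the libraries left out (limma adjusted p = 0.0772), and when the 4 libraries compared were fitted alone (limma adjusted p = 0.0927). The CXCL1 and NFKBIA calls held in 2 of 8 such fits, those without a knockdown slice library, and the CXCL1 call was lost with no filter on low values (limma adjusted p = 0.0612). Without knockdown slice replicate 2, 1 gene rose and 3 fell, with CXCL2 added (limma adjusted p = 0.0463), against 38.7% of all genes called, 19.5% higher and 19.2% lower.

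**Figure D1:**
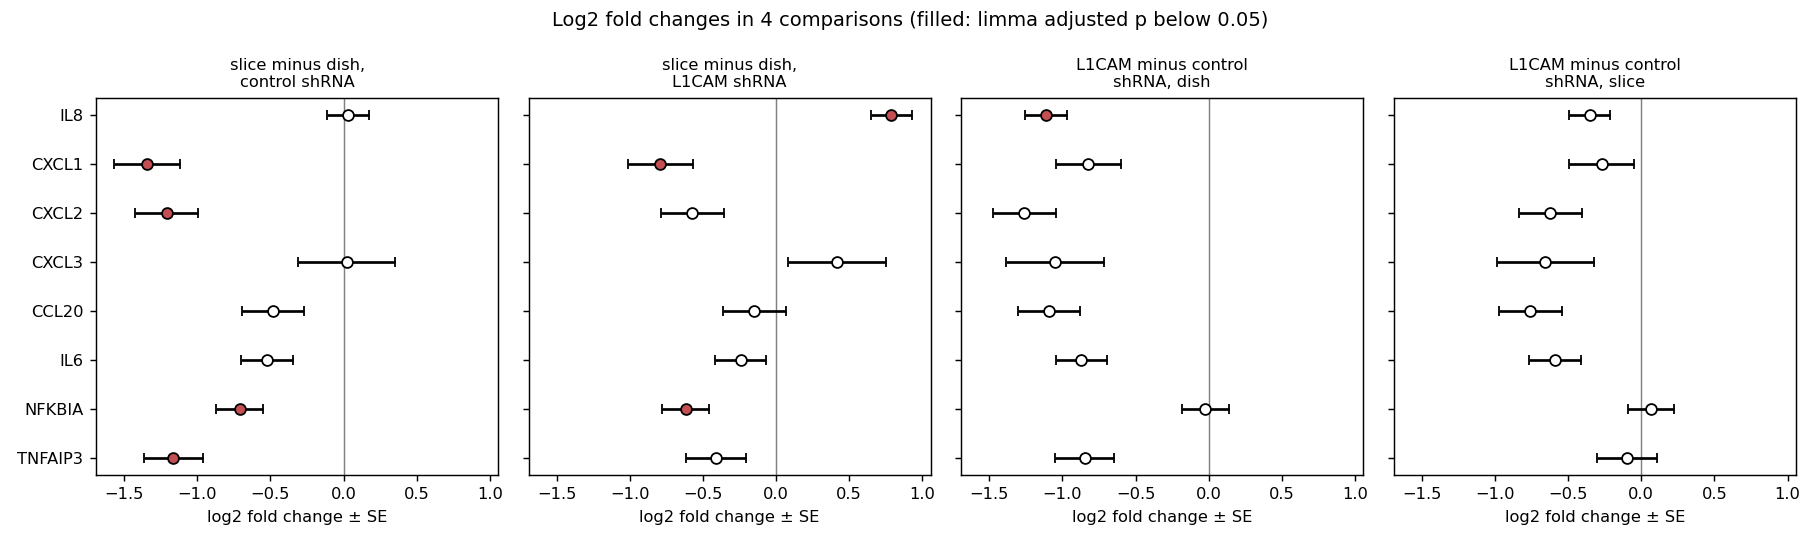
Log2 fold change with its standard error (horizontal axis) of the 8 tested genes in the 4 pairwise comparisons; filled points have a limma adjusted p below 0.05. In the dish, 7 of the 8 genes lie between −1.26 and −0.82 with L1CAM shRNA and NFKBIA lies at −0.02, and IL8 is the gene called higher on slices in knockdown cells.

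In the dish, IL8 was lower in L1CAM-knockdown cells than in control cells, and the other secreted factors and TNFAIP3 had lower values too, by similar sizes but without a call. IL8 had 2986 and 3055 normalized counts in control dish and 1286 and 1520 in knockdown dish, a 2.15-fold difference of means, or −1.11 ± 0.14 on the log2 scale (limma adjusted p = 0.0261). It ranked 15 by p among all genes in a comparison that called 0.307% of them, 40 genes, with 0.215% lower. That call was lost without any single dish library and without either control slice library, in fits that lost all or most calls over all genes. Without any single dish library the log2 fold change of IL8 lay between −1.23 and −0.99.

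Of the 8 genes, 7 were lower in both knockdown dish libraries than in both control dish libraries, an arrangement found in 25.6% of all tested genes, and the same 7 had an unadjusted limma p under 0.05, as did 5.17% of all genes in that direction. The median log2 fold change of the 8 was −0.96, beside 0.01 over all genes. CXCL2 went from 245 and 250 to 86.1 and 122 (−1.26 ± 0.22, limma adjusted p = 0.0538) and CXCL1 from 234 and 254 to 112 and 169 (−0.82 ± 0.22, limma adjusted p = 0.234). CXCL3 went from 68.5 and 43.4 to 26.6 and 25.1 (−1.05 ± 0.33, limma adjusted p = 0.325). The CXC ligands thus stood at lower values as a group of 4, with 1 of them called.

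CCL20, which recruits CCR6-bearing lymphocytes and dendritic cells, had 136 and 166 in control dish and 66.9 and 73.3 in knockdown dish (−1.09 ± 0.21, limma adjusted p = 0.0806). IL6 had 406 and 507 against 252 and 244 (−0.87 ± 0.18, limma adjusted p = 0.0976). TNFAIP3 had 178 and 169 against 92.5 and 99.4 (−0.85 ± 0.20, limma adjusted p = 0.161). NFKBIA had 1040 and 1016 in control dish and 887 and 1154 in knockdown dish, values that overlapped, at −0.02 ± 0.16 (limma adjusted p = 0.991). Without knockdown slice replicate 2, which is in neither group and leaves the fold changes as they are, the 7 genes were all called lower (limma adjusted p from 1.96e-05 for IL8 to 0.0194 for CXCL3), in a fit that called 11.0% of all genes, 6.56% lower.

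On brain slices the difference between knockdown and control cells was called for none of the 8 genes by limma, by edgeR or by DESeq2, against 0.646% of all genes called by limma and 0.492% called lower; 4 of the 8 were lower with an unadjusted limma p under 0.05, as were 9.85% of all genes. IL8 had 3214 and 2962 in control slice and 2510 and 2326 in knockdown slice, lower without overlap, at −0.35 ± 0.14 (limma adjusted p = 0.253). CCL20 had 119 and 96.3 against 65.5 and 60.7 (−0.76 ± 0.21, limma adjusted p = 0.163), and IL6 had 312 and 319 against 193 and 227 (−0.59 ± 0.18, limma adjusted p = 0.175). These 3 secreted factors were lower in both knockdown libraries. CXCL2 stood at −0.62 ± 0.22 (limma adjusted p = 0.218), CXCL3 at −0.66 ± 0.33 (0.307) and CXCL1 at −0.27 ± 0.22 (0.486), each also without overlap.

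The feedback inhibitors differed little on slices: TNFAIP3 had 71.6 and 82.4 in control cells and 80.3 and 64.3 in knockdown cells, and NFKBIA had 626 and 631 against 650 and 666. In all, 6 of the 8 genes were lower in both knockdown slice libraries, against 24.1% of all tested genes. If knockdown slice replicate 2 was left out, IL6 was called lower (−0.71, limma adjusted p = 0.0212) where 4.67% of all genes were called, 3.16% lower; without replicate 1 in its place, 5 of the 8 were, in a fit that called 6896 of all genes.

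Whether the slice changed these transcripts differently in knockdown and control cells was tested as the difference between the 2 slice responses. No gene of the 13010 tested, and so none of the 8, passed the threshold with limma, edgeR or DESeq2, while 162 genes had an unadjusted limma p under 0.05. IL8 had the largest value of the 8, 0.76 ± 0.20, with a limma adjusted p of 0.970. TNFAIP3 followed at 0.75 ± 0.29 and CXCL2 at 0.64 ± 0.31, and NFKBIA was closest to 0 at 0.09 ± 0.23. All 8 values were above 0, as were 49.1% of all genes; the 8 share the same libraries and are not independent. Without knockdown slice replicate 1 the IL8 difference was called (limma adjusted p = 0.00461), in a fit that called 4136 of all genes, and without replicate 2 it was 0.81 and not called (limma adjusted p = 0.352).

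Ratios within a library do not depend on the size factor and show how the make-up of the chemokine transcripts differed. They all share IL8 and the same 8 libraries, so they restate the counts above, and no share over all genes was taken. IL8 stood at 12.8 and 12.04 times CXCL1 in control dish, at 33.7 and 31.1 in control slice, at 11.5 and 9.02 in knockdown dish and at 31.6 and 29.6 in knockdown slice. The 4 slice libraries were all above the 4 dish libraries in both kinds of cell, and the 2 kinds overlapped on slices. The ratio of IL8 to CXCL2 was also higher in each slice library than in each dish library, with 12.2 and 12.2, 28.3 and 29.8, 14.9 and 12.4, and 37.3 and 33.1 in the same order of groups.

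The ratio of IL8 to CCL20 was 18.4 to 22.0 in the 4 dish libraries and 26.9 to 38.3 in the 4 slice libraries, and that to IL6 was 5.11 to 7.36 against 9.29 to 13.0. The ratio to TNFAIP3 was 13.9 to 18.1 against 31.3 to 44.9. For CXCL3 the ratios overlapped, at 43.6 to 70.4 in the dish and 54.4 to 88.9 on slices. IL8 made up 82.8% to 85.1% of the counts of the 4 CXC genes in the dish libraries and 92.3% to 93.0% in the slice libraries. The ratio to NFKBIA, the inhibitor, separated all 4 groups without overlap, at 2.87 and 3.01 in control dish, 5.14 and 4.69 in control slice, 1.45 and 1.32 in knockdown dish and 3.86 and 3.49 in knockdown slice.

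**Figure D2:**
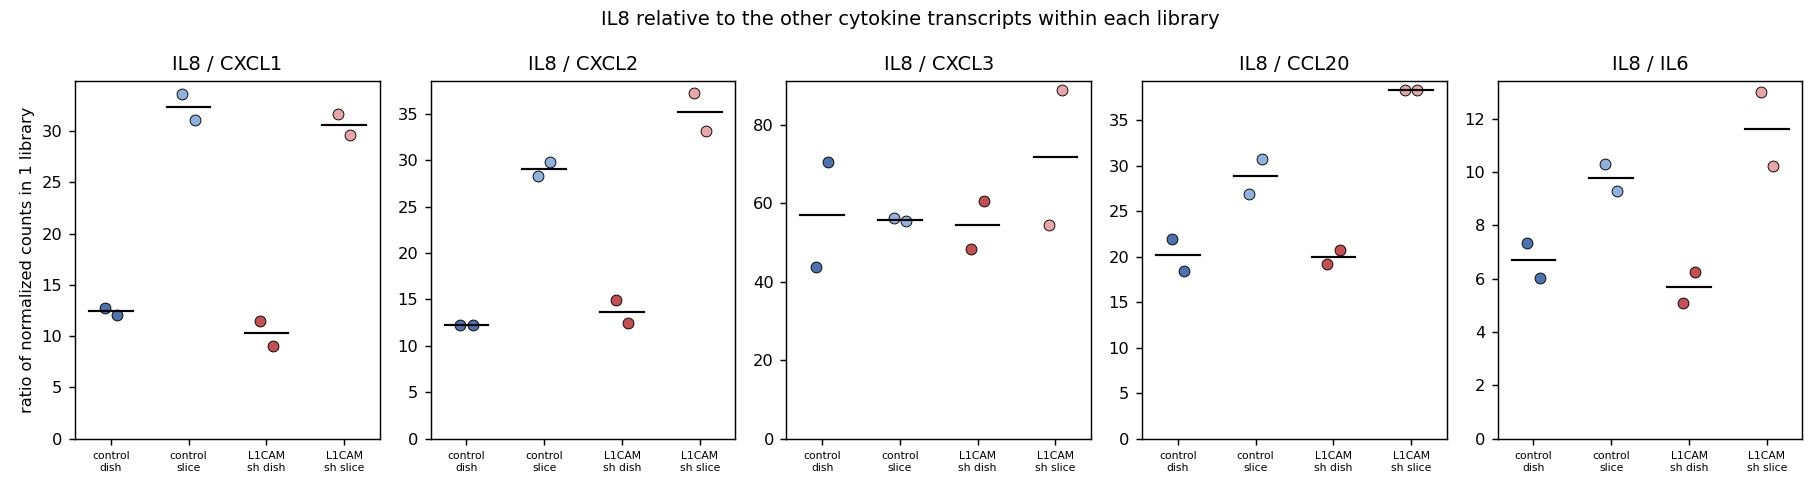
Ratio of the normalized count of IL8 to that of each other secreted factor in 1 library (vertical axes, linear, from 0); points are libraries and bars the mean of the 2 replicates. The IL8 to CXCL1 ratio is 29.6 to 33.7 on slices and 9.02 to 12.8 in the dish for both kinds of cell, while the ratios to CXCL3 overlap.

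The other genes of the pathway were read from lists by role. Among 18 tested of 19 subunits, adaptors and kinases of the pathway, 1 rose on slices in control cells, TNFRSF1A, the main receptor of TNF (0.72 ± 0.16, limma adjusted p = 0.0227), and 1 fell, MAP3K14, the kinase NIK of the non-canonical pathway (−0.96 ± 0.20, limma adjusted p = 0.0174). In knockdown cells TNFRSF1A rose again (0.83 ± 0.16, limma adjusted p = 0.0109) and none fell. In control cells the TNFRSF1A call held in 2 of 8 fits with a library left out and that of MAP3K14 in 4 of 8. Of all genes, 14.8% and 21.3% were called in the 2 comparisons. No gene of this list was called for L1CAM knockdown, in the dish or on slices, and the list's medians were −0.10 and −0.19.

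The 5 subunits themselves were not called in any comparison with all libraries. In control dish, control slice, knockdown dish and knockdown slice, mean normalized counts were 1281, 1497, 1153 and 1428 for RELA and 1360, 1287, 1410 and 1179 for NFKB1. They were 2231, 1698, 1753 and 1408 for NFKB2, 713, 761, 523 and 638 for RELB, and 127, 122, 115 and 68.8 for REL. The knockdown slice replicates lay far apart, with an SD of 295 for RELA, 161 for NFKB1, 390 for NFKB2, 190 for RELB and 61.9 for REL. NFKB2 and RELB form the dimer of the non-canonical pathway. Leaving out knockdown slice replicate 2, more of this list and more of all genes were called in each of these comparisons. In that fit NFKB2 was lower on slices in control cells (−0.39) and in knockdown cells (−0.63, or −0.34 with both knockdown slice libraries). MAP3K14 (−0.96 and −0.62) was lower too, as was IKBKG in control cells (−0.60). TNFRSF1A (0.72 and 0.62), TAB3 (0.70 and 0.99) and CHUK (0.55 and 0.69) were higher on slices in control and knockdown cells. So were TAB2 (0.44 and 0.42), TRAF6 (0.48 and 0.66) and MAP3K7 (0.31 and 0.35). Also in that fit, RELB (−0.45), MAP3K7 (−0.36) and NFKB2 (−0.35) were lower with L1CAM knockdown in the dish. On slices NFKB2 (−0.58) and RELB (−0.59) were lower with knockdown slice replicate 1 alone, against −0.30 and −0.29 with both libraries.

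None of the other inhibitors and feedback genes was called lower on slices, where NFKBIA and TNFAIP3 had fallen in control cells. Of 19 tested of 21, 4 rose and 0 fell on slices in control cells, and 4 rose and 0 fell in knockdown cells, where 6.80% and 10.1% of all genes rose; the list medians were 0.24 and 0.23. BCL3, an atypical IkB protein of the nucleus, had mean normalized counts of 735 in control dish and 1942 in control slice (1.40 ± 0.20, limma adjusted p = 0.00531) and of 756 and 2547 in knockdown cells (1.72 ± 0.20, limma adjusted p = 0.00195). ZFP36, the protein tristetraprolin that marks cytokine mRNAs for decay, rose by 0.93 ± 0.18 and 0.75 ± 0.18. RNF11, a partner of TNFAIP3, rose by 0.92 and 0.77, and TNIP2, an A20-binding protein, by 0.69 and 0.75. With all libraries, none was called for L1CAM knockdown in either setting. In the fit that leaves out knockdown slice replicate 2, more of this list and more of all genes rose on slices. BIRC3 (−0.65) and TAX1BP1 (−0.33) were lower with L1CAM knockdown in the dish in that fit, which also called more of all genes there. The calls in control cells were lost for BCL3, ZFP36, RNF11 and TNIP2 without any 1 control library (limma adjusted p up to 0.242), and in knockdown cells they held in 8 of 8 fits with a library left out for BCL3, in 4 for ZFP36 and RNF11 and in 2 for TNIP2.

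Of 23 tested of 42 other target genes, 4 rose and 0 fell on slices in control cells, and 4 rose and 1 fell in knockdown cells, against 6.80% and 8.03% of all genes in control cells and 10.1% and 11.2% in knockdown cells. CCL2, a chemokine for monocytes, had mean normalized counts of 370 in control dish, 877 in control slice, 344 in knockdown dish and 809 in knockdown slice, so it rose by 1.24 ± 0.16 (limma adjusted p = 0.00396) and 1.22 ± 0.16 (limma adjusted p = 0.0029). That direction is opposite to CXCL1 and CXCL2 in the same libraries. IRF1, an interferon-response factor, rose by 1.06 ± 0.16 and 0.71 ± 0.16, and IER3, an early-response gene, by 0.69 ± 0.15 and 1.03 ± 0.15. In knockdown cells CCL2 was called in 8 of 8 fits with a library left out, IER3 in 7 and IRF1 in 4, and in control cells the counts were 5, 2 and 4 of 8.

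The remaining calls among these targets were of low or single genes. TNFSF10 (TRAIL), a death ligand, was called in control cells, at 3.32 in the dish and 16.2 on slices, but its log2 fold change of 2.24 went from 1.00 to 2.61 between pseudocounts of 10 and 0.25. IL11, a cytokine of the IL6 family, was called in knockdown cells at 2.01 and went from 0.85 to 2.37. PLAU, urokinase, fell in knockdown cells (−0.86 ± 0.22, limma adjusted p = 0.025), a call that held in 2 of 8 fits with a library left out. None of these targets was called for L1CAM knockdown with all libraries, and the list's medians were −0.10 in the dish and −0.06 on slices, beside −0.96 and −0.47 for the 8 genes. Without knockdown slice replicate 2, more of this list and more of all genes were called in each of these comparisons. In that fit PLAU (1.23), C3 (1.29), IL32 (1.55) and GADD45B (0.53) were higher with L1CAM knockdown in the dish. IER3 (−0.42) was lower there, and on slices C3 was higher (1.56), a value from knockdown slice replicate 1 alone. C3 is a complement protein, IL32 a cytokine and GADD45B a stress-response gene. Other classical targets were too low to test: TNF reached 1.19 normalized counts, CSF2 3.69, CXCL5 7.54 and CXCL10 1.00.

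**Figure D3:**
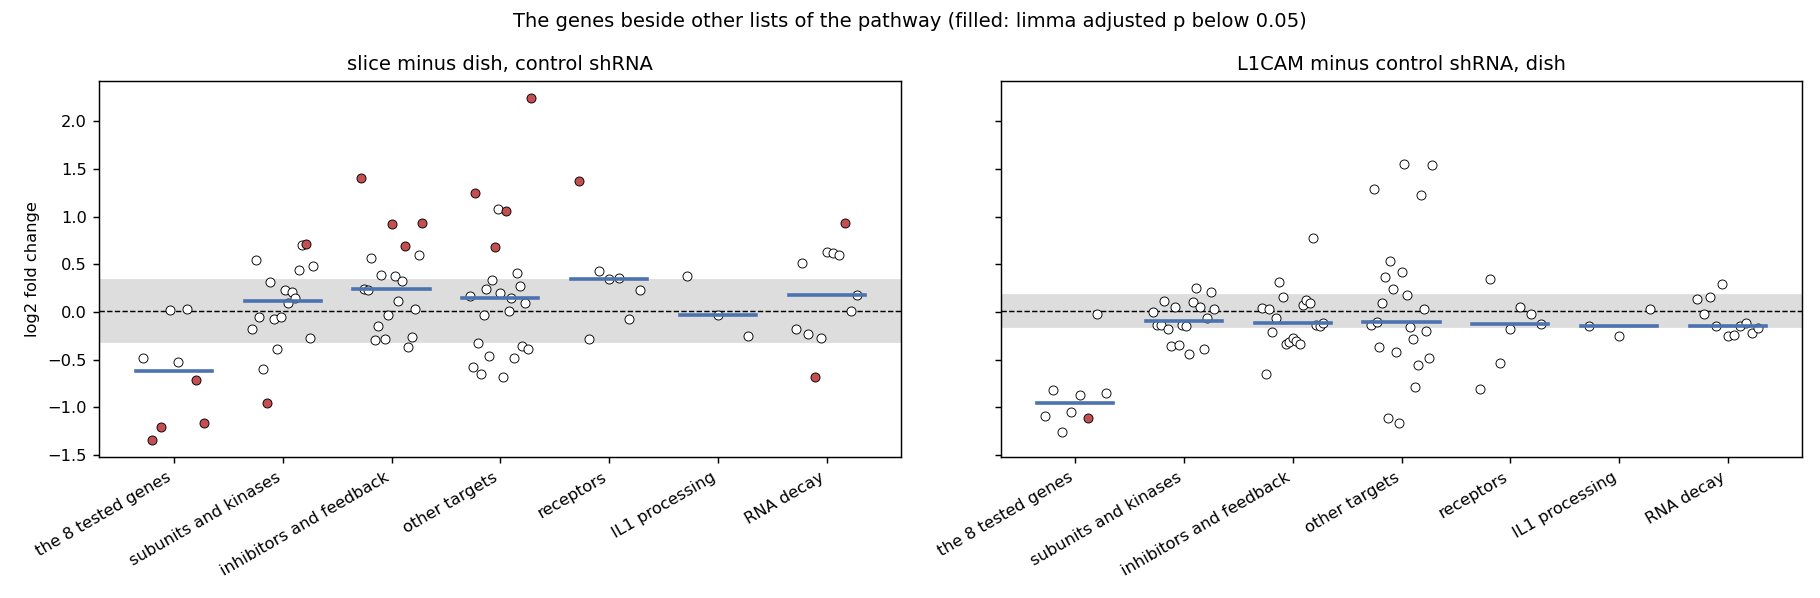
Log2 fold change (vertical axis) of each tested gene of the 8 and of the 6 pathway lists, for slice minus dish in control cells and for L1CAM minus control shRNA in the dish; filled points have a limma adjusted p below 0.05, blue bars are list medians, and the grey band spans the middle 50% of all tested genes around their median (dashed). In the right panel the 8 genes have a median of −0.96 while the medians of the 6 lists lie between −0.15 and −0.10.

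The receptors of the chemokines were at or near 0 in the tumour cells. CXCR1 was at 0 in all libraries, CXCR2 had at most 2.75 normalized counts, CCR6 at most 9.22, and the interleukin 1 antagonist IL1RN was at 0. Of 7 tested of 15 receptors and co-receptors, 1 rose on slices: IL1R1, the signalling receptor of IL1A and IL1B, went from mean normalized counts of 117 to 305 in control cells (1.37 ± 0.23, limma adjusted p = 0.00794) and from 66.9 to 176 in knockdown cells (1.38 ± 0.23, limma adjusted p = 0.00572); the call held in 4 of 8 and 7 of 8 fits with a library left out. IL6R, which binds IL6, was the 1 list gene called for L1CAM knockdown, on slices, at 528 in control cells and 213 in knockdown cells (−1.33 ± 0.20, limma adjusted p = 0.0374). That call was lost in 6 of 8 fits with a library left out, with a limma adjusted p up to 0.395, and held without knockdown slice replicate 2 (−1.06, limma adjusted p = 0.00111). IL6ST, the subunit that carries the IL6 signal, had mean normalized counts of 6053, 7652, 5295 and 5236 in the 4 groups and was not called in any comparison with all libraries. With knockdown slice replicate 2 left out, more of this list and more of all genes rose on slices, IL6ST among them in control (0.35) and knockdown cells (0.47). The IL6ST value in knockdown cells rests on replicate 1 alone. With both libraries its means there were 5295 in the dish and 5236 on slices, which is no rise. In the fit without replicate 2, IL1R1 (−0.81) and IL6R (−0.54) were lower with L1CAM knockdown in the dish, where more of all genes were called too.

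Which genes most resembled IL8 and NFKBIA over the 8 libraries was described by Pearson's r of log2(normalized count + 1); the points share libraries and groups, and no test was made. For IL8 the 5 highest were PPP1R11 (0.978), CORO2B (0.966), SIRPB1 (0.954), KMO (0.950) and ZFP41 (0.948). PPP1R11 had group means of 1641, 1692, 1094 and 1460 in control dish, control slice, knockdown dish and knockdown slice, lowest in knockdown dish like IL8. For NFKBIA they were UMPS (0.992), TRIP13 (0.992), GLO1 (0.989), RBM3 (0.988) and CCT6A (0.983), of which TRIP13 had 2768, 1602, 2637 and 1615, high in the dish and low on slices in both kinds of cell. None of these 10 is among the 8 tested genes.

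Cells of the mouse slice could add RNA to slice libraries, and fewer ribosome-bound transcripts per cell cannot be told apart from fewer cells that carry them in such bulk libraries. Of 12 microglia and macrophage markers, P2RY12, C1QA, C1QB and C1QC were at 0 in all libraries, and the sum of all but CD68, which the tumour cells express in the dish, was 6.60 to 16.1 in dish libraries and 5.73 to 16.6 in slice libraries. Of 7 astrocyte markers S100B was at 0 and GFAP and AQP4 reached 1.00; the sum of the 5 not expressed in the dish was 3.01 to 5.50 there and 0 to 5.73 on slices. The sum of the 8 low neuronal markers of 9 was 70.4 to 95.3 in the dish and 88.6 to 132 on slices, and that of 7 endothelial and mural markers 8.49 to 13.7 and 10.5 to 22.6. The part of RNA from slice cells in the slice differences was not tested.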

How the data were processed

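Ribosome-bound poly-A RNA was sequenced (TruSeq RNA v2, unstranded, RNA integrity above 9.5, per the labels' protocols). The authors deposited 1 table of normalized counts (a signal: reads divided by a size factor per library); HTSeq 0.5.4, FastQC 0.11.3, DESeq2 and the build hg19 come from the submitters' processing notes. Which aligner and gene models were used is not given in the sources used here. The low values were whole multiples of 1 step per library, which gave back the reads and the depth, and 0 columns of samples were left unused. The main test was limma 3.58.1 (R 4.3.3) on log2(normalized count + 1) with an intensity trend over all 8 libraries, for 13010 genes with a mean of at least 10, with Benjamini-Hochberg adjustment over all of them in each of 5 comparisons and a threshold of 0.05. It was checked on simulated data. edgeR 4.0.16 and DESeq2 1.42.0 were run on the recovered reads as alternatives. Values are normalized counts, with libraries given in the order replicate 1, replicate 2. Exon lengths came from GENCODE v29 and covered 95.8% of tested genes; promoters came from RefSeq GRCh38.p14, so no coordinates are given for the table's own genes. Named genes were the 10 members, L1CAM, up to 5 called genes per list and comparison, and the 5 genes most like IL8 and NFKBIA; genes named without knockdown slice replicate 2 were chosen after their values were seen. The members and lists were chosen with earlier results of these data known. Replicate numbers were not treated as pairs. The oligodendrocyte marker list is not reported here.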

Additional observations from a re-analysis of the deposited data

How the results depend on the processing

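Counts below are of the 8 tested genes called by limma adjusted p unless another tool is named. For slices against dish, control cells gave 4 with all libraries and 0 to 6 with 1 library left out. Knockdown cells gave 3, with 0 when the 4 libraries compared were fitted alone, 1 with library weights, 2 with no filter on low values and 0 to 4 with 1 library left out. For L1CAM knockdown in the dish 1 was called, with 2 at a pseudocount of 10 and 2 with edgeR, 4 with DESeq2, 7 with the 4 libraries compared or library weights, and 0 to 7 with 1 library left out; the counts over all genes were 40, 62, 77, 184, 824 and 1011 in the same order, the last 2 for the 4 libraries and the weights. On slices 0 were called, and 0 to 5 with 1 library left out. For the difference between slice responses 0 were called, and 0 to 1. For slices against dish in knockdown cells, the counts over all genes were 2775 with all libraries and 510 with the 4 libraries compared. They were 975 with library weights and 2313 with no filter on low values. Leaving 1 library out leaves its group with 1, which is then assumed to vary like the others. In each pairwise comparison such fits called more of all genes without a knockdown slice library and fewer without any other. The ranges above moved with those calls and need not be particular to the 8 genes. Across the 795 alternative values of single genes, 696 kept their direction and side of the threshold, 46 gained a call, 42 lost one and 11 turned sign. Most of the 696 were values not called with all libraries that stayed uncalled. Only the 4, 3 and 1 genes called with all libraries could lose a call, and all 42 losses fell on them. Those turning sign were near 0: CXCL3 on slices in control cells was −0.027 with edgeR and −0.012 with DESeq2, and NFKBIA in knockdown dish was 0.013 with upper-quartile scaling. With 1 library left out, IL8 on slices in control cells ranged from −0.028 to 0.090, CXCL3 there from −0.30 to 0.34, NFKBIA in knockdown dish from −0.21 to 0.17, TNFAIP3 in knockdown slice from −0.25 to 0.062, and the difference of slice responses from −0.0024 to 0.79 for CXCL3 and from −0.10 to 0.28 for NFKBIA. Library weights and the crossed pairing were chosen after seeing the data; the cause of these changes was not tested.

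Nothing in the labels pairs the replicate numbers. Deviations of same-numbered libraries correlated at −0.38 to 0.19 over the 6 pairs of groups, the lowest between control dish and knockdown dish. With 1 difference per group, these values cannot exclude a pairing. A replicate block gave 4, 3, 1, 0 and 0 genes called, the counts without it, and 1814, 2777, 46, 85 and 0 over all genes, against 1930, 2775, 40, 84 and 0. With the dish groups' numbers crossed, 0 of the 8 and 12 of all genes were called in the dish. At this depth IL1A and IL1B could not be tested.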

Other observations

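Genes that act on the fate of these mRNAs and on interleukin 1 release add to the description. Of 11 tested of 12 genes of cytokine mRNA decay, 1 rose and 1 fell on slices in control cells, and 2 rose and 1 fell in knockdown cells, shares near the 14.8% and 21.3% of all genes called. HNRNPD (AUF1), which binds AU-rich elements of cytokine mRNAs, fell in both (−0.68 ± 0.14, limma adjusted p = 0.0154, and −0.50 ± 0.14, limma adjusted p = 0.0326), while ZFP36 rose in both and CNOT7, a deadenylase, rose in knockdown cells (0.59 ± 0.15, limma adjusted p = 0.0277). With 1 library left out, the HNRNPD call held in 4 of 8 fits in control cells and 2 of 8 in knockdown cells, and that of CNOT7 in 2 of 8. Without knockdown slice replicate 2, 5 rose and 3 fell in control cells and 5 rose and 2 fell in knockdown cells, where 47.0% and 38.7% of all genes were called. None of the 11 was called for L1CAM knockdown. Of the IL1 processing and release genes, 3 of 11 passed the filter and none was called in any comparison with all libraries. Without knockdown slice replicate 2, CAPN1 was higher on slices in control cells (0.37) and lower with L1CAM knockdown on slices (−0.75). HAX1 was lower on slices in control cells (−0.25) and in knockdown cells (−0.30) in that fit. Its values for knockdown slice rest on replicate 1 alone. Of the inflammasome genes, CASP1 had 2 reads, PYCARD 1 and NLRP3 1 in all 8 libraries together.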
